A study of Mus musculus with 36 samples.

Results

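The genes described here encode the proteasome: 73 probe sets whose single gene symbol begins with Psma, Psmb, Psmc, Psmd or Psme, out of 22690 probe sets on a mouse Affymetrix array. The interferon-inducible catalytic subunits Psmb8, Psmb9 and Psmb10 were left out by this choice and serve only for comparison. The 73 probe sets read 40 genes, of which 15 belong to the 20S core (27 probe sets), 20 to the 19S cap (37 probe sets), among them its assembly chaperones Psmd5, Psmd9 and Psmd10, and 2 to the PA28 activators (4 probe sets). The other 3 genes (5 probe sets) are Psme4, which encodes the activator PA200, and Psme3ip1 and Psmc3ip, which share the letters but are no proteasome subunits. Psme2, the partner of Psme1, was read only by a probe set that lists a second symbol and so was not a member.

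The 20S core is a barrel of stacked rings, with alpha subunits (Psma) at both ends and beta subunits (Psmb) inside, of which Psmb5, Psmb6 and Psmb7 carry the active sites. The 19S cap, built of ATPases (Psmc) and non-ATPase subunits (Psmd), recognises, unfolds and feeds in ubiquitin-tagged proteins, whereas PA28 and PA200 open the core without ATP. Interferons are known to replace the constitutive active sites with Psmb8, Psmb9 and Psmb10 and to induce PA28 made of Psme1 and Psme2, which shifts the peptides offered to MHC class I.

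The study measured total RNA of 36 arrays in 18 groups of 2. Primary microglia, the resident macrophages of the brain, came from mice lacking Usp18 (KO), from mice carrying Usp18 C61A, and from wild-type mice (WT); the BV-2 microglial cell line received siRNA against Usp18 or control siRNA. Usp18 removes the ubiquitin-like protein ISG15 from its targets and separately restrains signalling from the type I interferon receptor; C61A is known to replace the catalytic cysteine of the first function. Each arm was untreated (0 h) or was given 500 U/ml IFN-b (interferon beta) for 6 h or 24 h. The labels give 2 biological replicates per group but no age or sex, and do not say which arrays share an animal or culture, so each p-value measures the spread between these arrays.

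WT microglia occur as 2 sets of 6 arrays with the same names, told apart only by their place in the deposited order: set 1 stands with the KO arrays and set 2 with the C61A arrays. The KO was therefore compared with WT set 1 and C61A with WT set 2, and every difference between KO and C61A was taken as a difference between those 2 contrasts. All values below are log2 intensities and all changes are differences of log2 group means ± SE with 2 arrays a group. A member was called changed when limma's moderated test, fitted on all genes of a cell system, gave a Benjamini-Hochberg adjusted p under 0.05. Of the 40 genes, 39 were tested in microglia (Psmc3ip was too dim) and 39 in BV-2 cells (Psma8 was too dim). These are bulk RNA samples, in which fewer cells of a type and less RNA per cell cannot be told apart.

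Some checks bear on the arrays. Usp18 itself was low on the KO arrays (4.40 and 3.77 untreated, 6.42 and 5.85 at 6 h, 5.92 and 5.97 at 24 h), against 5.68 and 5.99, 12.56 and 12.41, and 11.15 and 10.71 on the WT set 1 arrays at the same times. The differences were -1.75, -6.35 and -4.99 (adjusted p = 0.199, 0.00226 and 0.00147). Between the arrays labelled Usp18 siRNA and those labelled control siRNA no lower Usp18 was called: the differences were -0.02 at 0 h, -0.29 at 6 h and -0.34 at 24 h (adjusted p = 1.00, 0.763 and 0.632), so these arms are named by their labels only. Single arrays also stood apart from their partner. Untreated WT set 2 replicate 1 had 12.97 for Usp18 and 13.16 for the interferon-induced Ifit1, against 9.31 and 8.17 in replicate 2, and C61A replicate 2 at 6 h had 10.71 for Usp18, against 13.04 in replicate 1. The Usp18 siRNA replicate 2 at 6 h had 11.78 for the macrophage marker Aif1, while the other BV-2 arrays at 0 and 6 h lay between 5.80 and 8.18. These 3 are called the doubted arrays below, and where they enter a comparison that a result turns on, its value without them is given beside it. Leaving them out leaves 1 array each in untreated WT set 2, C61A at 6 h and Usp18 siRNA at 6 h. Both microglia arrays were doubted by interferon-induced genes, and leaving either out enlarges the IFN-b response of such genes. Calls and counts without them are therefore no separate support for a response. Usp18 siRNA replicate 2 at 0 h also stood apart, with 8.63 for Ifit1 and 9.04 for Irf7, against 5.01 and 6.94 in replicate 1. It was not counted among the doubted arrays. The microglial genes Csf1r and Aif1 were bright on every microglia array (Csf1r 10.43 to 13.34, Aif1 10.68 to 12.58). In BV-2 cells Cx3cr1 stayed between 4.53 and 5.66 on all arrays except 6.08 and 8.04 on 2 Usp18 siRNA arrays.

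Psme1 moved more than any other member after Psmc4, whose spread lay between the 2 sets of microglia. In the fit without a replicate block, Psme4 was the other activator with a called genotype difference or IFN-b response. Psme3 was called there only between the WT sets. The promoter windows of Psme1 and Psme4 are printed here because the results turn on them. Psme3 and the catalytic Psmb5 stand beside them as genes of related roles with no called genotype difference in that fit. The windows run from 250 bases before to 50 bases after the RefSeq gene start (GRCm38.p6), 5′ to 3′ on the gene's strand, and capitals mark the 1 match to GAAANNGAA, the core of the interferon-stimulated response element, on either strand.
Psme1 chr14:55578244-55578543 (+): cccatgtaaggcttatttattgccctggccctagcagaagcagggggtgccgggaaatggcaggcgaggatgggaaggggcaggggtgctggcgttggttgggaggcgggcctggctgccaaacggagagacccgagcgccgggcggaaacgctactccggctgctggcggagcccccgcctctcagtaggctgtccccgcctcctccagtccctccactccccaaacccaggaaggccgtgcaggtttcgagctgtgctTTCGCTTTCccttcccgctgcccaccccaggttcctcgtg
Psme4 chr11:30771525-30771824 (+): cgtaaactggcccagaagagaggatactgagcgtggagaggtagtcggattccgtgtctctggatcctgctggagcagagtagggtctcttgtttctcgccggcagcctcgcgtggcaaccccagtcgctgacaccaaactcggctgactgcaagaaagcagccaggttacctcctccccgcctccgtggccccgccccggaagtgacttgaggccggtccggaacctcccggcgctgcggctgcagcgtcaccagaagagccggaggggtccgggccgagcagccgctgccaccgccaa
Psme3 chr11:101315963-101316262 (+): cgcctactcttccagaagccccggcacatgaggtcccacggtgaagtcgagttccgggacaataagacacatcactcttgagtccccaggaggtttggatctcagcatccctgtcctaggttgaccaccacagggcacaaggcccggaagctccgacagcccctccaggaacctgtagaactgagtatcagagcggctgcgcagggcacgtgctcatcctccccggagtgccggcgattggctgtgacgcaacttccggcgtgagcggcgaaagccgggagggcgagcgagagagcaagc
Psmb5 chr14:54617946-54618245 (-): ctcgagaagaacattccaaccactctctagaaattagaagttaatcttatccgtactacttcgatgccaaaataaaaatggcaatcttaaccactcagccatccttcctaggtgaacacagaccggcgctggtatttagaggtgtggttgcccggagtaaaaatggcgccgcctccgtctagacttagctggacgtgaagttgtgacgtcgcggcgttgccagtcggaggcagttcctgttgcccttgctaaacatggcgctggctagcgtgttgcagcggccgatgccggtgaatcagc
The match in Psme1 reads GAAAGCGAA on the minus strand and lies 11 bases after the gene start. Windows in RefSeq's table were found for 33 of the 40 genes (36 windows), and 6 of the 36 (16.7%) held GAAANNGAA, against 8.56% of all 32851 promoter windows of that length. The other 5 were those of Psmb3 and Psmb4 (core), and Psmc2, Psmd4 and Psmd9 (19S). None of the 3 immunoproteasome windows held GAAANNGAA. TGACNNNGC, the core of the antioxidant response element that Nrf1 and Nrf2 bind, occurred in 6 windows (16.7%), those of Psmb5, Psmb6, Psmc6, Psmd9, Psmd12 and Psme4, against 12.4% of all. CCAAT occurred in 14 of 36 (38.9%), against 37.4%. All motifs were searched on both strands, and each match describes letters only.

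Most proteasome genes were bright, and they ranged less in BV-2 cells than in microglia. On microglia arrays 38 of the 39 tested members lay above the array median on every one of 24 arrays, and in BV-2 cells 39 of 39 did on all 12. The exception was Psma8, an alternative alpha subunit known from testis, whose 24 microglia values ran from 3.21 to 5.87. Only WT set 2 6 h replicate 1 (5.74, array median 5.637) and the doubted C61A 6 h replicate 2 (5.87, array median 5.674) brought it into the tests. On every KO and WT set 1 array it lay below the array median. Its calls in those arms therefore rest on dim values and are no support for a change. Group means ranged over more than 1 in 16 of 39 members in microglia (median range 0.93) and in 2 of 39 in BV-2 cells (median range 0.32). Psmb1, a non-catalytic beta subunit, had the narrowest range of microglia group means, 0.22, from 11.09 in KO at 6 h to 10.87 in WT set 2 at 24 h, with a largest gap between replicates of 0.31. The beta subunit Psmb4 ranged over 0.38 with a largest replicate gap of 0.38, so its neighbouring groups could not be ordered beyond their spread. Psme1 ranged over 2.50 in microglia, from 12.28 in KO at 24 h to 9.78 in untreated C61A (median replicate gap 0.21), and over 1.47 in BV-2 cells, from 11.29 with Usp18 siRNA at 24 h to 9.82 in untreated control siRNA cells. In BV-2 cells the core genes ranged over 0.17 (Psma3, Psmb3) to 0.37 (Psma2), and among the other members tested there only Psme1 and Psmc3ip (1.10) ranged over more than 1.

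**Figure D1:**
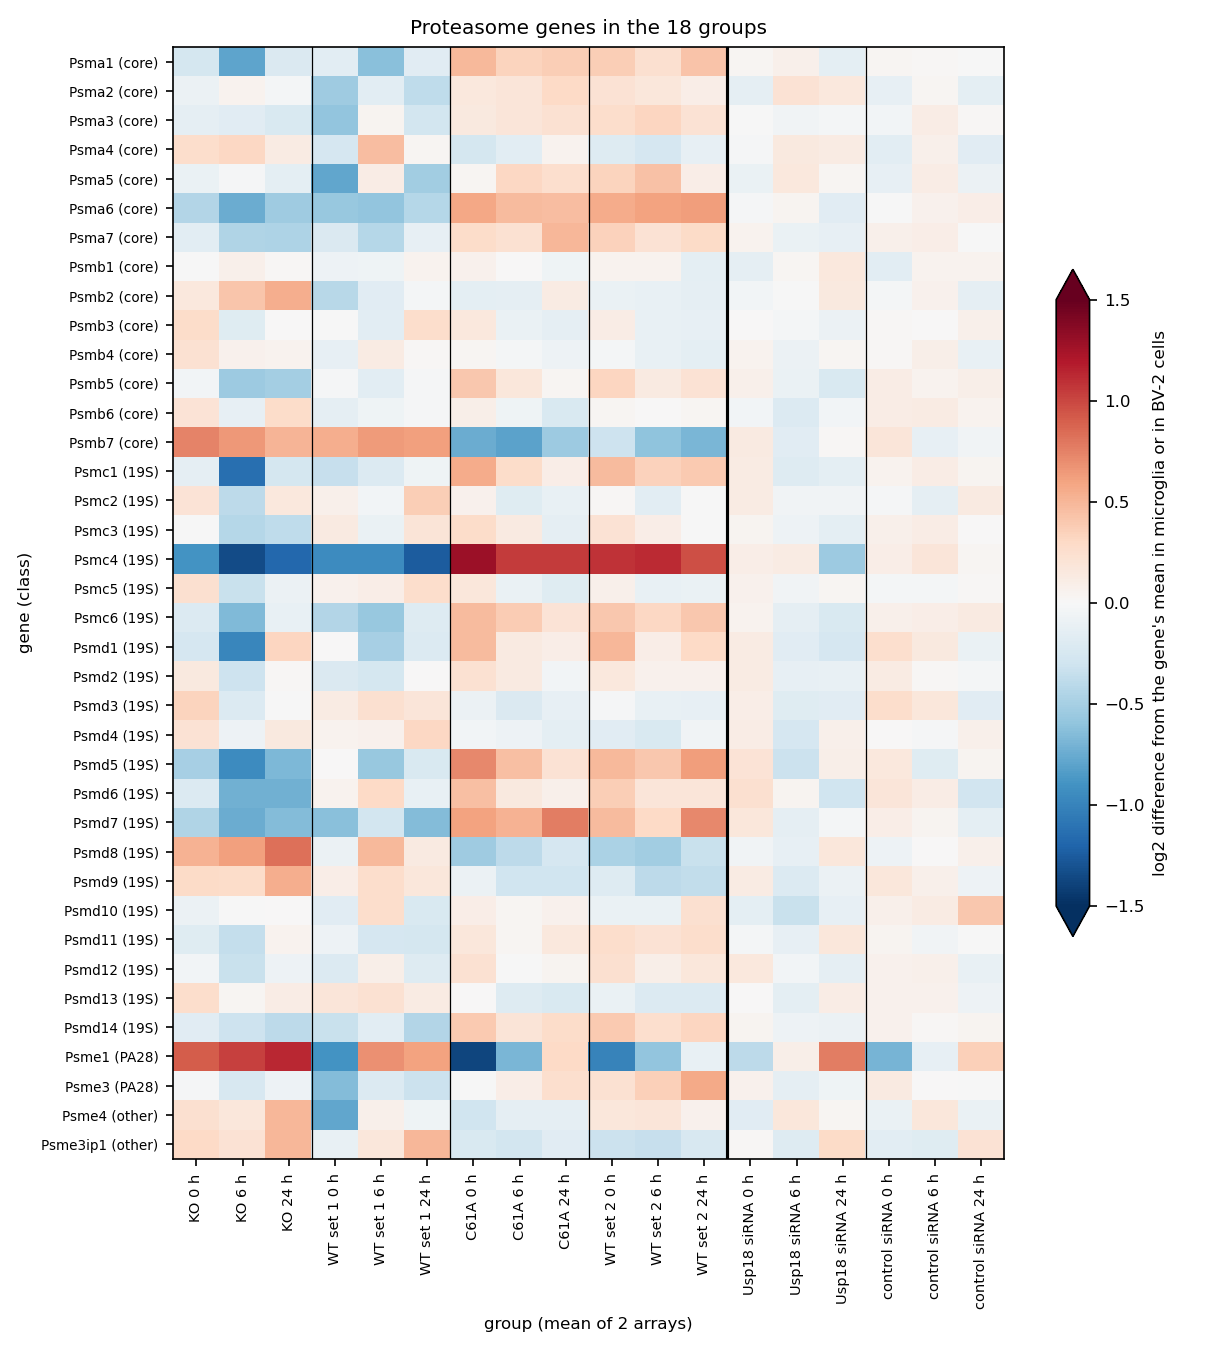
Mean log2 intensity of 38 proteasome genes in the 18 groups, each gene shown as the difference from its own mean in microglia (left of the thick line) or in BV-2 cells (right), with 2 arrays per group and the colour scale limited to 1.5 in either direction. Psme1 is high in all 3 KO groups and low in the untreated groups of the other arms, and Psmc4 and Psmb7 divide the microglia by set.

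The 2 WT sets differed from each other in many members. Of the 39, 14 were called between untreated WT set 1 and WT set 2, where 27.2% of all 7960 genes were called: 13 lower and 1 higher in set 1. When the doubted arrays were left out 12 were, all lower in set 1, and 11 of them are among the 14. Psmc4, a base ATPase, lay between 7.80 and 8.58 on the 6 WT set 1 arrays and between 10.15 and 10.58 on the 6 WT set 2 arrays, a difference of -2.02 ± 0.230 untreated (adjusted p = 3.4e-05). The KO arrays (7.89 to 8.64) lay with WT set 1 and the C61A arrays (10.27 to 10.72) with WT set 2. The trypsin-like subunit Psmb7 ran the other way, 11.09 and 10.88 in untreated WT set 1, against 9.95 and 10.28 in untreated WT set 2 (0.86 ± 0.211, adjusted p = 0.00785). Without the untreated WT set 2 replicate 1 that difference was 0.70 (adjusted p = 0.0755). Between the sets 7 members were higher and 9 lower in set 1 at 6 h (30.9% of all genes called), and 3 higher and 10 lower at 24 h (32.7%). Of 6 tested astrocyte markers 2 were lower in set 1 (median of the list -3.26) and of 5 tested cell division genes 4 were higher (median 2.24). Of 8 microglial genes 3 were higher in set 1 and 1 lower. The part of cell make-up in these differences was not tested, and set and processing order cannot be told apart.

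Untreated KO microglia had more Psme1 and Psme4 RNA than untreated WT set 1 microglia, with smaller rises of a few core and cap genes. Of the 39 members, 5 rose and none fell, where 16.8% of all genes were called (637 up, 699 down). In the same contrast 3 of 5 tested cell division genes were lower in KO (median -1.35), and of 8 microglial genes 1 was higher and 1 lower, whose part was not tested. With arrays of 1 arm and replicate number treated as a random culture, 3 members rose: Psme1, Psme4 and Psme3. The 16.8% belongs to the fit without that block, and the share of all genes called with it is not given here. Psme1 had 12.14 and 11.97 in untreated KO microglia, against 10.12 and 10.39 in untreated WT set 1. The groups did not overlap, and the difference was 1.80 ± 0.314 (95% interval 1.13 to 2.47, adjusted p = 0.00263), a 3.49-fold higher level in KO. Without the doubted arrays, which enter only through the shared spread, it was 1.80 (adjusted p = 2.3e-05). Psme4 had 10.04 and 9.71 in KO, against 8.83 and 8.87 in WT set 1, a rise of 1.02 ± 0.173 (adjusted p = 0.00213), or 2.03-fold. Untreated WT set 2 had 9.98 and 9.61 for Psme4, which overlaps KO, and without a term for the set the KO difference was 0.55 (adjusted p = 0.209). Psme3, the nuclear PA28 gamma, had 7.80 and 7.57 in KO, against 7.24 and 6.85 in WT set 1 (0.64 ± 0.215, adjusted p = 0.0538). With quantile normalization it passed the threshold (0.75, adjusted p = 0.0454). Untreated WT set 2 had 7.99 and 7.88 for Psme3, above both KO arrays, so the difference holds against WT set 1 only.

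Among core genes at 0 h, the alpha subunit Psma5 had 11.14 and 10.61 in KO, against 10.23 and 10.17 in WT set 1 (0.67 ± 0.205, adjusted p = 0.0369). The beta subunit Psmb2 had 10.66 and 10.36 in KO, against 9.89 and 9.97 in WT set 1 (0.59 ± 0.182, adjusted p = 0.0412). The lid subunit Psmd8 of the 19S cap had 11.69 and 11.61 in KO, against 10.94 and 11.14 in WT set 1 (0.61 ± 0.193, adjusted p = 0.0432). All 3 stood close to the threshold. Untreated WT set 2 had 11.53 and 11.11 for Psma5 and 10.40 and 10.11 for Psmb2, which overlap KO. For Psmd8 it had 10.89 and 10.40, below KO. Leaving out 1 array at a time ended the call of Psma5 in 3 of 24 runs (without KO replicate 1 its difference was 0.41), that of Psmd8 in 10 and that of Psmb2 in 11. The median change was 0.28 over the 15 core genes (12 positive) and 0.16 over the 20 cap genes (15 positive). It was 0.17 over the 17 cap genes without the 3 assembly chaperones, beside -0.10 over all genes tested (3422 of 7960 positive).

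The constitutive catalytic subunits were not called at 0 h, while their interferon-inducible replacements rose. Psmb5, the chymotrypsin-like subunit, had 10.19 and 10.50 in KO, against 10.44 and 10.33 in WT set 1, a difference of -0.03 (95% interval -0.47 to 0.40). Psmb6, the caspase-like subunit, differed by 0.34 (-0.05 to 0.74) and Psmb7 by 0.20 (-0.25 to 0.65). The interval of Psmb6 reached the size of the rise in Psma5, and those of Psmb5 and Psmb7 did not. In the same contrast Psmb8, Psmb9 and Psmb10 rose by 2.43, 3.07 and 2.26 (adjusted p = 0.00147, 0.00353 and 0.0239). Psmb9 had 11.70 and 11.18 in KO, against 8.09 and 8.64 in WT set 1.

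**Figure D2:**
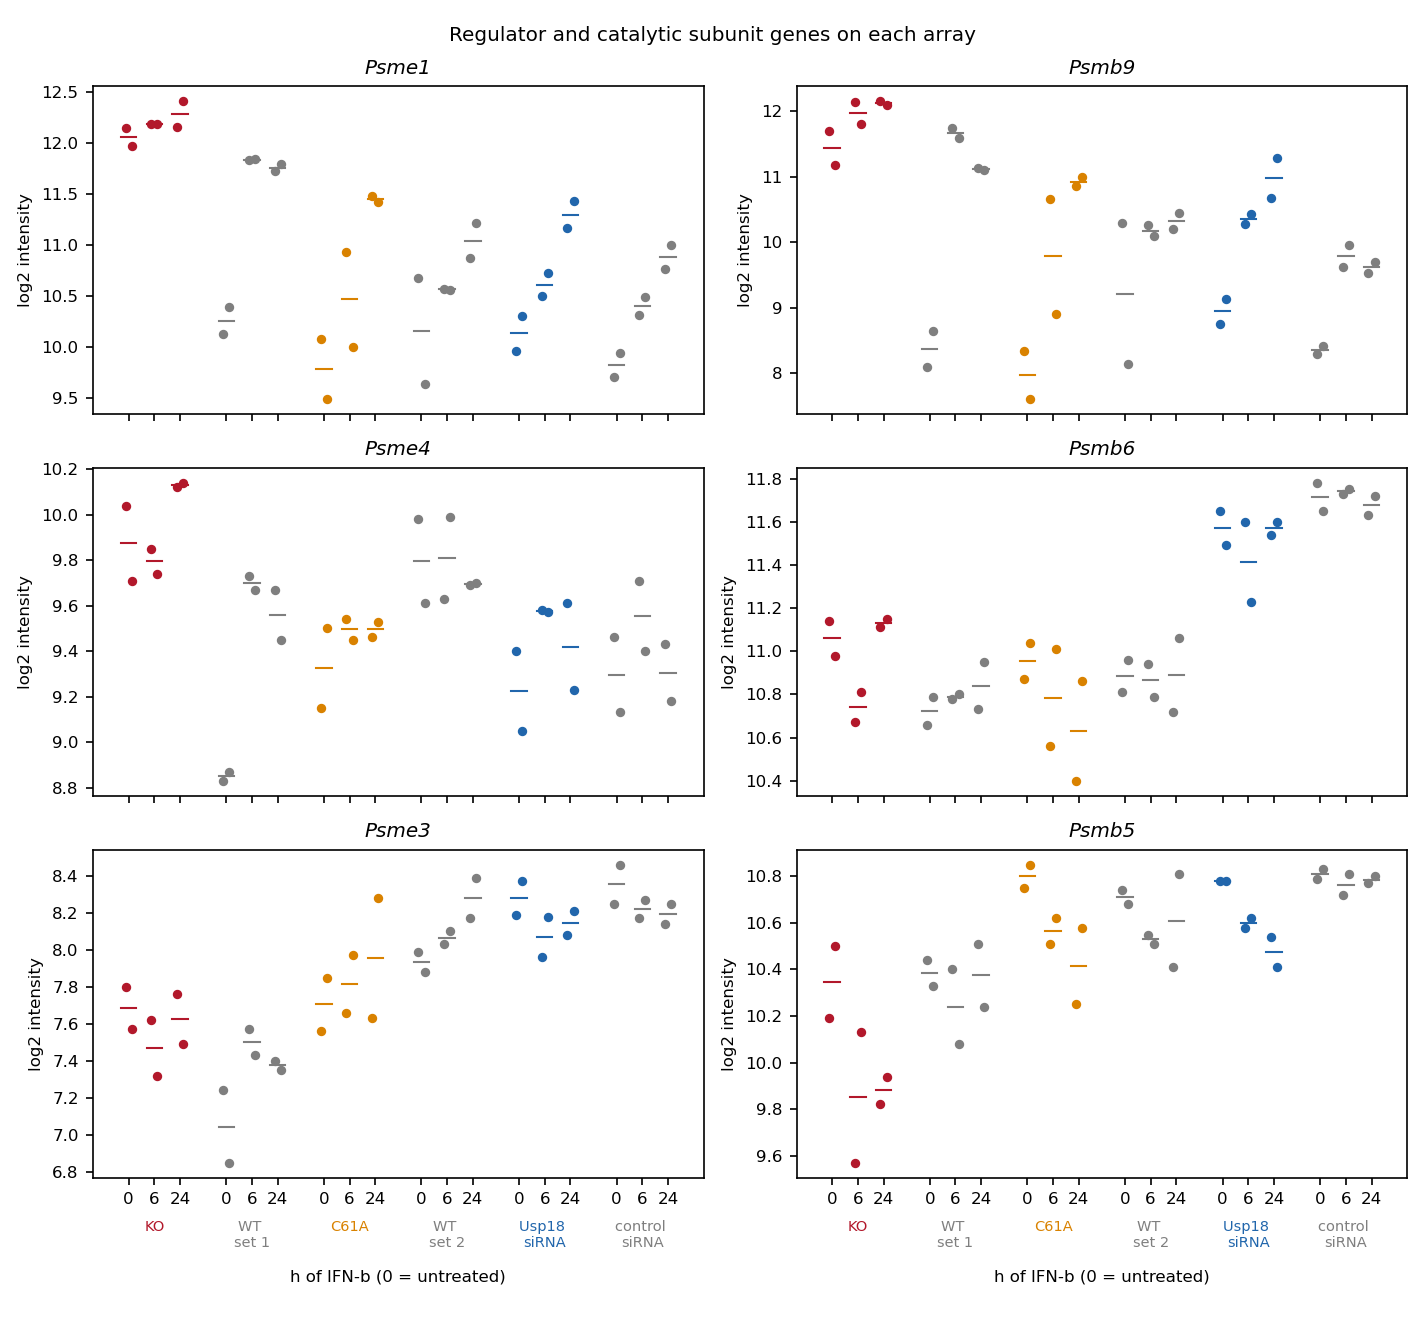
Log2 intensity on each array (points) and group means (bars) of 3 activator genes, the immunoproteasome gene Psmb9 and the constitutive catalytic genes Psmb6 and Psmb5, by arm and hours of IFN-b; the y axes differ and do not start at 0. Untreated KO arrays for Psme1 (12.14 and 11.97) lie above every treated WT array (10.56 to 11.84), whereas microglia arrays run from 10.40 to 11.15 for Psmb6 and from 9.57 to 10.85 for Psmb5.

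At 6 h of IFN-b the untreated difference in Psme1 was no longer called and 2 cap genes were lower in KO. Of 39 members none rose and 2 fell, where 8.32% of all genes were called. Psmd6, a lid subunit, had 8.76 and 9.81 in KO at 6 h, against 10.34 and 10.23 in WT set 1. It fell by 1.00 ± 0.245 on the log2 scale (adjusted p = 0.0258). Its KO replicates lay 1.05 apart, and without KO replicate 1 the difference was -0.48 and not called. Psmc1, a base ATPase, had 8.05 and 8.24 in KO, against 9.12 and 8.99 in WT set 1 (-0.91 ± 0.181, adjusted p = 0.0110). Its call ended without KO 6 h replicate 1 (-0.82) or WT set 1 6 h replicate 1 (-0.85). Over the 20 cap genes the median difference was -0.34 with 18 negative, beside -0.06 over the core and -0.08 over all genes (4496 of 7960 negative). Psme1 had 12.18 and 12.18 in KO, against 11.83 and 11.84 in WT set 1 (0.34, adjusted p = 0.548), so the WT arrays had come to lie just below the KO ones. Of 8 microglial genes 2 were lower in KO at this time, whose part was not tested.

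At 24 h, 3 members were higher and 2 lower in KO, where 29.1% of all genes were called. Psmd8 had 11.96 and 11.95 in KO, against 11.19 and 11.33 in WT set 1 (0.70 ± 0.193, adjusted p = 0.0157). Psmb2 had 10.85 and 10.94 in KO, against 10.40 and 10.23 in WT set 1 (0.58 ± 0.182, adjusted p = 0.0279). Psme4 had 10.12 and 10.14 in KO, against 9.67 and 9.45 in WT set 1 (0.57 ± 0.173, adjusted p = 0.0229). These are 3 of the 5 genes called at 0 h. Deviations of same-numbered arrays at 0 and 24 h correlated at 0.715 in KO and 0.491 in WT set 1. The 24 h calls are therefore no separate support for those at 0 h. Psmc3, a base ATPase, had 9.47 and 9.29 in KO, against 9.99 and 9.92 in WT set 1 (-0.58 ± 0.157, adjusted p = 0.0143). The dim Psma8, below the array median on all these arrays, had 3.94 and 3.42 in KO, against 4.95 and 4.80 in WT set 1 (-1.20 ± 0.307, adjusted p = 0.0107). Every one of the 5 lost its call in some run that left out a KO or WT set 1 array of 24 h. Psmb5 differed by -0.50 (95% interval -0.93 to -0.06, adjusted p = 0.0800) and Psme1 by 0.52 (adjusted p = 0.231, and 0.0496 without the doubted arrays).

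C61A microglia showed no called member at any time. Of 39 members, limma called 0 at 0, 6 and 24 h, with 1, 0 and 0 under an unadjusted p of 0.05, where 0.0126%, 0.0126% and 0.0251% of all genes were called. Psme1 had 10.08 and 9.49 in untreated C61A, against 10.67 and 9.63 in untreated WT set 2, a difference of -0.37 (95% interval -1.04 to 0.30). Without the doubted WT replicate 1 the sign turned, to 0.15. At 6 h Psme1 differed by -0.09 (-0.76 to 0.58), or 0.37 without the doubted arrays, and at 24 h by 0.41 (-0.26 to 1.08). Psme4 had 9.15 and 9.50 in untreated C61A, against 9.98 and 9.61 in WT set 2 (-0.47, 95% interval -0.84 to -0.10, not called after adjustment). The Psme4 difference without the doubted arrays was -0.28 (95% interval -0.72 to 0.16). Both intervals for Psme1 at 0 h, with all arrays and without the doubted ones (-0.35 to 0.66), leave out a rise of the size seen in KO.

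The KO and C61A contrasts differed at 0 h by the test of the difference itself in 3 members, all larger in KO, where 12.2% of all genes were called. The KO contrast exceeded the C61A contrast by 2.17 ± 0.444 for Psme1 (adjusted p = 0.00831), by 1.49 ± 0.244 for Psme4 (adjusted p = 0.00296) and by 0.98 ± 0.289 for Psma5 (adjusted p = 0.0397). Without the doubted arrays these were 1.65 (adjusted p = 0.00460), 1.30 (adjusted p = 0.00970) and 0.77 (adjusted p = 0.145), so the call of Psma5 ended. At 6 and 24 h limma called 0 members in this difference (5 and 3 under an unadjusted p of 0.05, with 0.817% and 3.10% of all genes called). The contrasts use different WT sets, which themselves differed in Psme4 by -0.95 ± 0.173 untreated (adjusted p = 0.00135), or by -0.76 without the doubted arrays (adjusted p = 0.0225).

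**Figure D3:**
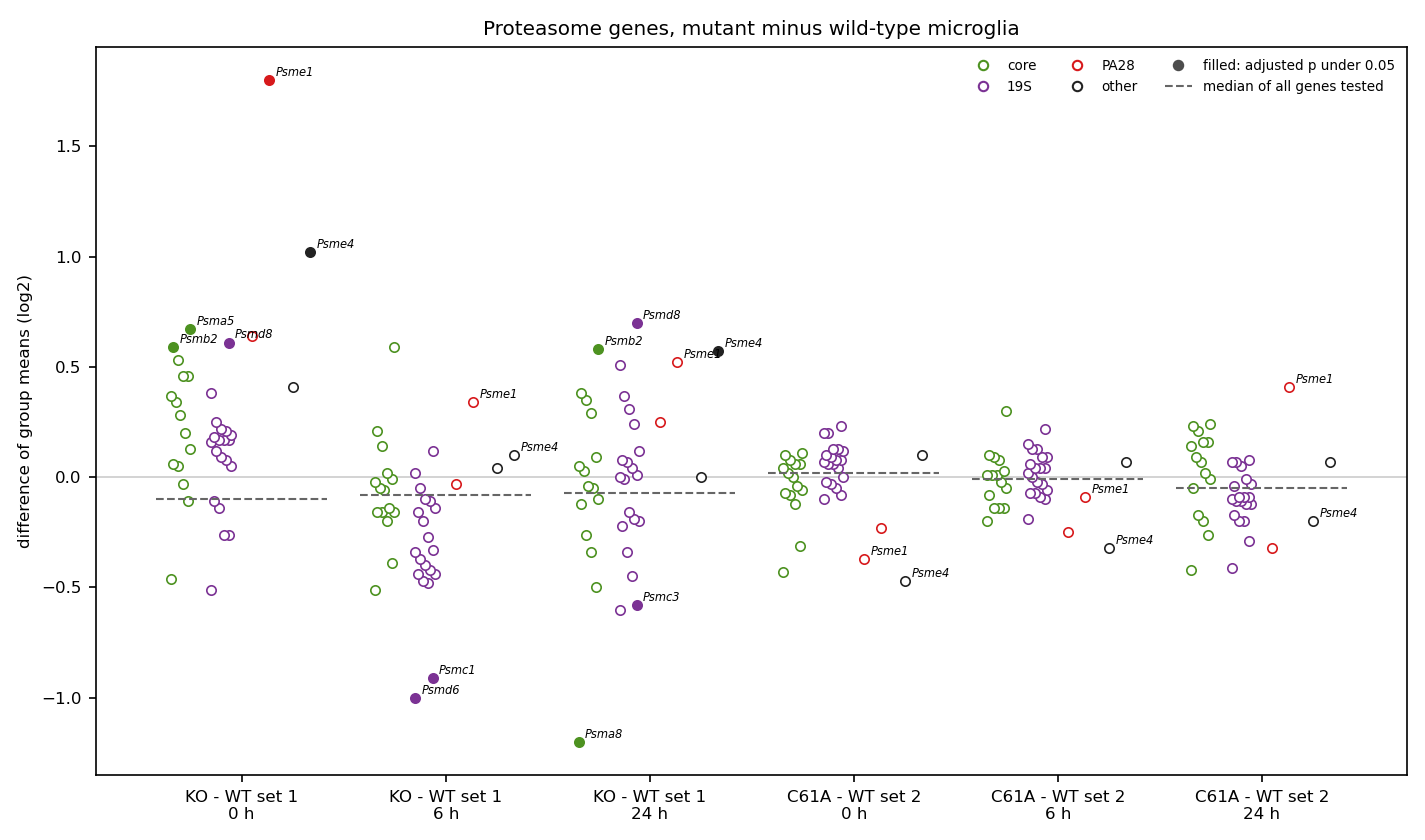
Difference of group means (log2) of each tested proteasome gene between mutant and wild-type microglia at 0, 6 and 24 h of IFN-b, coloured by class, with filled points at adjusted p under 0.05 and a dashed line at the median of all genes tested. Psme1 (1.80) and Psme4 (1.02) stand highest in untreated KO, the cap genes lie mostly below 0 in KO at 6 h, and no point is filled for C61A.

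In WT microglia IFN-b raised Psme1 at both times and a few other members at 6 h. Averaged over both sets, 4 members rose and none fell at 6 h, where 15.4% of all genes were called, and 1 rose at 24 h, where 2.59% were. Psme1 had 11.83 and 11.84 at 6 h in WT set 1, against 10.12 and 10.39 untreated, and 10.57 and 10.56 at 6 h in WT set 2, against 10.67 and 9.63 untreated. The mean 6 h response was 1.00 ± 0.222 (adjusted p = 0.0103), and the mean 24 h response 1.19 ± 0.222 (adjusted p = 0.0111). It ended its call at 6 h without untreated WT set 2 replicate 2 (0.74), and at 24 h without WT set 1 0 h replicate 1 or 24 h replicate 2. Without the doubted arrays the 6 h response was 1.26 and the 24 h response 1.46, with 1 untreated array left in WT set 2. With replicates of one set and number treated as a random culture, 2 members were called at 24 h. The share of all genes called in that fit is not given here.

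The other WT members called at 6 h were Psma5 (0.51 ± 0.145, adjusted p = 0.0306), Psme4 (0.43 ± 0.122, adjusted p = 0.0300) and the alpha subunit Psma3 (0.34 ± 0.107, adjusted p = 0.0462). Leaving out 1 array at a time ended these calls in 7, 6 and 16 of 24 runs. Beside them Psmb8, Psmb9 and Psmb10 rose by 1.50, 2.14 and 1.84. In WT set 1 alone, 6 members rose and 1, the dim Psma8, fell at 6 h (24.8% of all genes called). Psma5 had 11.18 and 11.02 at 6 h, against 10.23 and 10.17 untreated, and Psme4 had 9.73 and 9.67 at 6 h, against 8.83 and 8.87 untreated. In WT set 2 Psma5 had 11.34 and 11.52 at 6 h, against 11.53 and 11.11 untreated, and Psme4 had 9.63 and 9.99, against 9.98 and 9.61. The set 2 changes were 0.11 for Psma5 and 0.01 for Psme4, and without the doubted arrays 0.32 (adjusted p = 0.610) and 0.20 (adjusted p = 0.743). No member was called in set 2 at 6 or 24 h (0 and 1 under an unadjusted p of 0.05, with 0.0126% and 0.0754% of all genes called), where the untreated replicate 1 stood apart. Without the doubted arrays the Psme1 response of set 2 was 0.93 at 6 h and 1.41 at 24 h, with 1 untreated array left. The array left out was doubted for its high interferon-induced genes, so its removal favours a larger Psme1 response and is no separate support. With all arrays the Psme1 response of set 1 was 1.58 and 1.50. In set 1, 2 members rose at 24 h (2.20% of all genes called): Psme1 and Psme4, by 1.50 and 0.71 (adjusted p = 0.0239 and 0.0468), of which Psme1 lost its call in 4 and Psme4 in 16 of 24 runs without 1 array. The test of the difference between the 2 sets' responses called no member at either time (8 and 2 under an unadjusted p of 0.05, with 0.791% and 0% of all genes called).

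In KO microglia no change of Psme1 with IFN-b was called, and several cap genes fell at 6 h. Psme1 had 12.18 and 12.18 at 6 h and 12.15 and 12.41 at 24 h, against 12.14 and 11.97 untreated, changes of 0.12 and 0.22 that were not called. At 6 h no member rose and 5 fell, where 8.45% of all genes were called. Psmc1 had 8.05 and 8.24 at 6 h, against 9.32 and 8.95 untreated (-0.99 ± 0.181, adjusted p = 0.00897). Psmc2 had 10.19 and 10.09 at 6 h, against 10.82 and 10.64 untreated (-0.59 ± 0.156, adjusted p = 0.0318), and Psmc5 had 9.60 and 9.85, against 10.29 and 10.29 (-0.57 ± 0.147, adjusted p = 0.0298). These 3 are ATPases of the base. Psmd3, a lid subunit, fell by 0.54 ± 0.149 (adjusted p = 0.0382). The dim Psma8, below the array median on all KO arrays, fell by 1.08 ± 0.307 (adjusted p = 0.0430).

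Over the 20 cap genes the KO response at 6 h had a median of -0.43 with 18 negative, beside -0.17 over the core and -0.11 over all genes. Over the 17 without the assembly chaperones it was -0.45 with 16 negative. The sign was not particular to KO. In the 6 h response 19 of the 20 cap genes were negative in C61A (median -0.21, all genes -0.09) and in WT set 2 (-0.12, all genes -0.07). With Usp18 siRNA 19 were negative too (-0.19, all genes -0.19). In WT set 1, 7 were (0.05, all genes -0.14), and with control siRNA 11 were (-0.03, all genes -0.05). Of all 7960 genes, 4782 were negative in KO, 5092 in C61A, 4932 in WT set 2 and 4709 in WT set 1. Of all 7163 genes in BV-2 cells, 4903 were negative with Usp18 siRNA and 4346 with control siRNA. With arrays of 1 number treated as a random culture, 11 members fell at 6 h, where 24.0% of all genes were called: the 5 above and Psmb5, Psmc3, Psmc6, Psmd1, Psmd2 and Psmd6. At 24 h Psma8 and Psmd1 were called with that block, for which the share of all genes called at 24 h is not given here. When each array was centred on its median, only Psmc1 kept its call of the 5. Leaving out 1 array at a time ended the call of Psmc1 in 2 of 24 runs (without KO 6 h replicate 1, -0.89, or 0 h replicate 2, -1.17), and that of Psmc5 in 3, Psmc2 in 4, Psmd3 in 11 and Psma8 in 13. At 24 h in KO, limma called 0 members, with 6 under an unadjusted p of 0.05, where 3.97% of all genes were called. The KO response was tested against that of WT set 1, which shares the untreated arrays with the comparisons above. It was lower for Psmc1 at 6 h (-1.12 ± 0.256, adjusted p = 0.0492, 1.14% of all genes called), and that call ended in 19 of 24 runs without 1 array. With the random culture block 5 members were lower (6.72% of all genes called): Psmc1, Psmd3, Psmd12, Psme1 and Psme4. For Psme1 the difference was -1.46 at 6 h and -1.28 at 24 h, not called with all arrays (adjusted p = 0.137 and 0.226) but called without the doubted ones (adjusted p = 0.00642 and 0.0220), and at 24 h no member was called with all arrays (3 under an unadjusted p of 0.05, 0.716% of all genes called).

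In C61A microglia Psme1 was the one member called, at 24 h. It had 10.93 and 10.00 at 6 h and 11.48 and 11.42 at 24 h, against 10.08 and 9.49 untreated. The 24 h change was 1.67 ± 0.314 (adjusted p = 0.00879), where 9.10% of all genes were called, and Psmb8, Psmb9 and Psmb10 rose beside it by 1.84, 2.95 and 2.38. Of 8 microglial genes 3 fell and 1 rose in this response (median -0.74) and 1 of 5 cell division genes fell (median -1.10), whose part was not tested. With arrays of 1 number treated as a random culture, 3 members were called, Psme1 up and Psmc1 and Psmc3 down. The 9.10% belongs to the fit without that block, and the share with it is not given here. In the fit without the block, the Psme1 call at 24 h ended without C61A 24 h replicate 1 (1.64), 24 h replicate 2 (1.69) or 0 h replicate 2 (1.37). At 6 h limma called 0 members, with 1 under an unadjusted p of 0.05, where 0.0503% of all genes were called. The Psme1 change was 0.69 (adjusted p = 0.839) with all arrays. Without the doubted ones it was 1.15, with 1 array left at 6 h, and the array left out was doubted for its low Usp18. In the difference between the C61A and WT set 2 responses limma called 0 members at 6 or 24 h (0 and 0 under an unadjusted p of 0.05, 0% of all genes called).

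**Figure D4:**
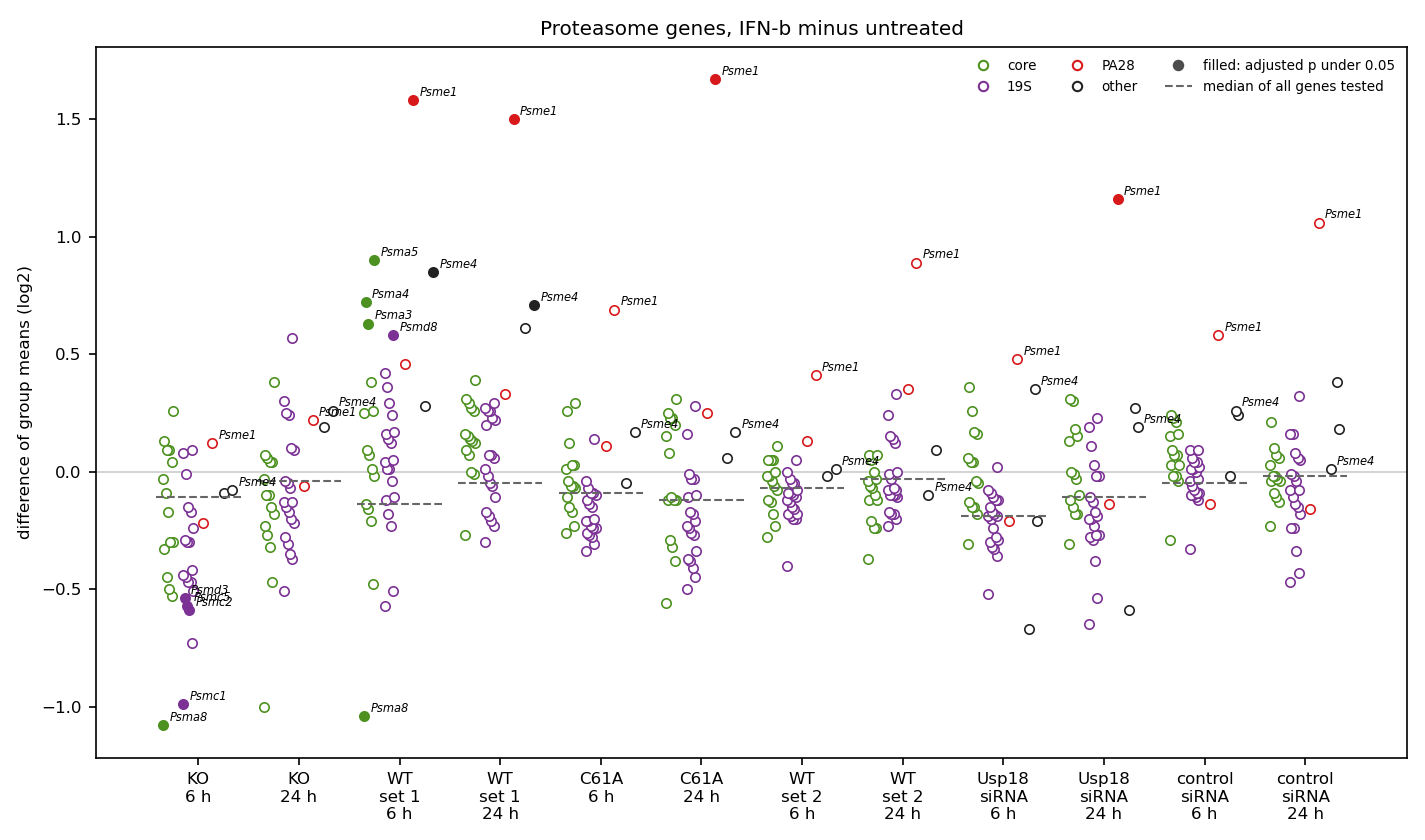
Difference of group means (log2) of each tested proteasome gene between IFN-b-treated and untreated cells of the same arm at 6 and 24 h, coloured by class, with filled points at adjusted p under 0.05 and a dashed line at the median of all genes tested. Psme1 is above 0 in every column, least in KO (0.12 and 0.22), and core and cap genes spread around the median of all genes in most columns.

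In BV-2 cells Psme1 was the only member called in the fit without a replicate block. It had 10.50 and 10.72 at 6 h and 11.16 and 11.43 at 24 h on the arrays labelled Usp18 siRNA, against 9.96 and 10.30 untreated. The 24 h change was 1.16 ± 0.192 (95% interval 0.73 to 1.60, adjusted p = 0.00877), where 15.9% of all genes were called, and the call ended without the 0 h replicate 1 (0.99) or the 24 h replicate 2 (1.03). With control siRNA Psme1 had 10.31 and 10.49 at 6 h and 10.76 and 11.00 at 24 h, against 9.70 and 9.94 untreated, a 24 h change of 1.06 ± 0.192 (95% interval 0.63 to 1.49, adjusted p = 0.0580, 0.503% of all genes called). That change was not called with the values as deposited, and with quantile normalization it passed the threshold (1.08, adjusted p = 0.0417). The 2 responses differed by 0.10 at 24 h (95% interval -0.51 to 0.72), and limma called 0 members in that difference at 6 or 24 h (1 and 0 under an unadjusted p of 0.05, with 0% and 0.0279% of all genes called). At 6 h the changes of Psme1 were 0.48 with Usp18 siRNA (adjusted p = 0.167, or 0.38 with an adjusted p of 0.422 without the doubted array) and 0.58 with control siRNA (adjusted p = 0.525), and limma called 0 members (3 and 1 under an unadjusted p of 0.05, with 1.97% and 0.991% of all genes called).

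Between Usp18 siRNA and control siRNA, limma called 0 members at 0, 6 and 24 h, with 0, 2 and 4 under an unadjusted p of 0.05, where 0%, 0% and 5.35% of all genes were called. Psme1 differed by 0.31, 0.22 and 0.41, or by 0.11 at 6 h without the doubted array, while Psmb9 rose by 1.37 at 24 h. Psme3 and the catalytic genes kept narrow ranges in these cells: Psme3 ran from 7.96 to 8.46 over all 12 arrays and Psmb5 from 10.41 to 10.83. All 5 tested cell division genes fell in the 24 h response with Usp18 siRNA (median -1.28), a change beside which no core or cap gene was called without the block.

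Same-numbered BV-2 arrays deviated together, and calls changed when the replicate number was a block. Psme1 was then called in the control siRNA response at 24 h (adjusted p = 0.00403), in the Usp18 siRNA response at 6 h (adjusted p = 0.0421) and between the siRNAs at 24 h (adjusted p = 0.0457), with the changes given above. In the Usp18 siRNA response at 24 h, 3 members were called with the block (28.6% of all genes called), Psme1 up and Psmd6 and Psmc3ip down. Psmc3ip, which is no proteasome subunit, was also called lower at 6 h in that response and between the siRNAs at 24 h, where 10.4% and 20.3% of all genes were called.

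Where a member had several probe sets, the others mostly had its sign. Of 21 further probe sets kept in microglia, 2 were called in the opposite direction, both between the WT sets: 1 of Psmd7 at 6 h and 1 of Psme3 at 24 h. In untreated KO against WT set 1, the 3 further probe sets of called genes had the same sign and 2 were also called, and at 24 h both further ones were called. In the 6 h KO contrast the 1 further probe set had the same sign without a call, and the mean of all probe sets ended the call of Psmd6 (-0.74, adjusted p = 0.0859).

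Pearson correlation with Psme1 over the 36 arrays was taken for the 6510 other genes read by the same probe set in both cell systems. The highest values were those of H2-T24 (0.957), Tapbp (0.953), Irf7 (0.951), Psmb9 (0.951) and C130026I21Rik (0.939). Irf7 is a transcription factor induced by interferon, and Tapbp encodes tapasin of the class I loading complex. Among members read by the same probe set in both, the values ran from 0.784 for Psme3ip1 and 0.703 for Psmb2 to -0.759 for Psmb5 and -0.794 for Psmd5. Psmd5 is a chaperone of cap assembly. Psmb3 and Psmc2 were not read in this way. These are descriptions over arrays that share arms, sets and cell systems.

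Other genes known to assemble or control the proteasome were read as lists. The list of 5 core assembly factors had 1 member down and none up in untreated KO against WT set 1, and 2 down at 24 h, where 16.8% and 29.1% of all genes were called. Psmg1 and Psmg2, the paired chaperones of the alpha ring, were at 6.41 and 6.50 and at 6.64 and 6.96 in KO at 24 h, against 7.89 and 7.71 and 8.35 and 7.89 in WT set 1 (-1.35, adjusted p = 5.8e-04, and -1.31, adjusted p = 6.9e-04). Both also fell in the 24 h response of KO (-1.03 and -0.85) and of Usp18 siRNA cells (-1.04 and -0.90), and in the 6 h response of WT set 1 (-0.73, adjusted p = 0.0200, and -1.07, adjusted p = 0.00274). The KO and WT set 1 responses of Psmg1 and Psmg2 differed by -0.77 and -0.64 at 24 h, not called (adjusted p = 0.266 and 0.366). Of 5 tested cell division genes 3 were lower in KO at 24 h (median -1.43), whose part was not tested. Psmf1, which encodes the proteasome inhibitor PI31, ran the other way: it was higher in KO than in WT set 1 by 0.62, 0.75 and 0.85 at 0, 6 and 24 h (adjusted p = 0.0322, 0.0234 and 0.00359). At 24 h it was also higher with Usp18 siRNA than with control siRNA, 9.07 and 9.72 against 8.18 and 8.08 (1.26, adjusted p = 0.0199).

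Nfe2l1 encodes Nrf1, the transcription factor that raises proteasome genes when the proteasome is impaired. It had 10.12 and 9.47 in untreated KO, against 8.54 and 8.44 in untreated WT set 1 (1.30 with an adjusted p of 0.00408), and was also higher in KO at 24 h (0.89, adjusted p = 0.0153). At 6 h it had 9.25 and 9.21 in KO, against 9.52 and 9.57 in WT set 1, with no call (-0.32, adjusted p = 0.469). In the same untreated contrast 6 of 7 tested genes of peptide transport and class I loading rose (median 1.46). The tested list of 13 proteasome-associated genes had 1 up and 1 down in that contrast and 3 up and 1 down at 24 h, shares near the 16.8% and 29.1% of all genes. In the 6 h response of KO, 3 of those 13 fell and 1 rose (median -0.41), where 8.45% of all genes were called. In that of WT set 1, 3 fell and 1 rose (median -0.33), where 24.8% of all genes were called. The shuttle factor Rad23b changed by -0.62 in KO and by -0.02 in WT set 1, the thioredoxin-like Txnl1 by -0.74 and -0.71, and the ubiquitin ligase Ube3c by -0.72 and -0.33. None of the 13 was called in the difference between the KO and WT set 1 responses.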

How the data were processed

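Total RNA of 24 microglia and 12 BV-2 arrays was read on Affymetrix arrays. The authors deposited 1 table of log2 intensities for 22690 probe sets, made with affy per the submitters' processing notes; the sources used here name no version, summary method or normalization, and the log base was taken from the range, 1.66 to 14.03. Array medians ran from 5.594 to 5.827, and the highest correlation of 2 arrays was 0.995. With 2 arrays a group, their number limits the precision.

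Groups came from the labels; WT sets 1 and 2 were told apart by deposited order, as a candidate technical batch. Probe sets brighter than the array median on 2 or more arrays of the fit were kept, and the one with the highest mean stood for its gene. R 4.3.3 and limma 3.58.1 fitted 12 microglia groups (7960 genes, 12 residual df) and 6 BV-2 groups (7163 genes, 6 residual df), with Benjamini-Hochberg adjustment over all genes and a threshold of 0.05; the code was tested on simulated data. Members, gene lists and tests were chosen with earlier results of these data known. Named with values were Psmb5, Psmb6, Psmb7 and the Psme genes, up to 5 called members of each class with the largest change, and called genes of related lists (assembly, associated factors, control of proteasome genes, ubiquitin, peptide transport and class I, interferon control).

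Deviations of same-numbered arrays of 1 arm at different times correlated at 0.296 to 0.811 in the microglial arms and at 0.310 to 0.759 in the BV-2 arms. At the same time they correlated at 0.322 to 0.506 between the siRNAs and at -0.460 to -0.0437 between mutant and WT microglia. The numbers were therefore taken to pair arrays of an arm over time, and the siRNAs in BV-2 cells, but not mutant with WT, although each arm had only 2 numbers. Alternatives were filter, centring, quantile normalization, mean of probe sets, term for the run, replicate block, doubted arrays and each array left out. One of the sequence motifs searched is not reported here.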

Additional observations from a re-analysis of the deposited data

Results flagged for a closer look

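In 4 results the effect of Usp18 loss differed from another effect by the test of the difference itself, on the log2 scale. The KO minus WT set 1 contrast of untreated microglia exceeded the C61A minus WT set 2 contrast by 2.17 for Psme1, by 1.49 for Psme4 and by 0.98 for Psma5. The 6 h response of Psmc1 was lower in KO than in WT set 1 by a difference of -1.12. The first 3 set contrasts from different sets of arrays against each other, and untreated WT set 2 replicate 1 stood apart. Without it and the other doubted arrays they were 1.65, 1.30 and 0.77. The Psmc1 difference lost its call in 19 of 24 runs without 1 array.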

How the results depend on the processing

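Of 51 called changes of single members, recomputed 405 times with other settings, 337 kept their call, 68 lost it and 0 turned round; 1212 recomputations without 1 array kept 1021 and lost 191. Psme1 in untreated KO against WT set 1 kept its call in all of them. The counts below are of members only, and the share of all genes called differed between fits. The count of members called in that comparison was 5, and became 3 without a filter, 2 with the run as an additive term, 1 with no term for the run, 10 with the replicate block within a run, 3 with a random culture block, and 2 to 6 without 1 array. At 6 h it was 2, and became 1 with the mean of probe sets, 4 with the replicate block, and 0 to 5 without 1 array; at 24 h it was 5, and 0 to 7 without 1 array. For the WT response at 6 h it was 4, and became 1 with the additive term, 0 with no term, and 0 to 5 without 1 array; at 24 h it was 1, and became 0 with no term, 2 with the random block, and 0 to 1 without 1 array.

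For the KO response at 6 h the count was 5, and became 1 with centred arrays, 0 with no run term, 8 and 11 with the fixed and random replicate block, and 0 to 8 without 1 array; at 24 h it was 0, and became 2 with the random block and 0 to 1 without 1 array. For the C61A response it was 0 at 6 h and 1 without the doubted arrays; at 24 h it was 1, and became 2 with the mean of probe sets, 0 with no run term, 3 with the random block, and 0 to 1 without 1 array. For KO minus WT set 1 response at 6 h it was 1, and became 0 without a filter, with centred arrays, with quantile normalization and with either change of the run term, 5 with the random block, 3 without the doubted arrays, and 0 to 2 without 1 array; at 24 h it was 0 and 1 without the doubted arrays. In BV-2 cells, Usp18 siRNA against control siRNA at 24 h gave 0, and 2 and 1 with the fixed and random replicate block and 0 to 2 without 1 array; the control response at 24 h gave 0, and 1 with quantile normalization and with either block; the Usp18 siRNA response gave 0 at 6 h, and 2 and 3 with the blocks, and 1 at 24 h, and 3 and 5 with the blocks and 0 to 1 without 1 array. For C61A against WT set 2 at each time, the difference of the C61A and WT set 2 responses, Usp18 siRNA against control siRNA at 0 and 6 h, the control response at 6 h and the difference of the siRNA responses, it was 0 with every alternative run. For the comparisons added later, the doubted arrays and the block were tried: between the WT sets it was 14, 16 and 13 at 0, 6 and 24 h and became 12, 15 and 15 without the doubted arrays; in WT set 1 it was 7 and 2 at 6 and 24 h and became 8 and 3, or 11 and 3 with the random block; in WT set 2 it was 0 and 0 and became 1 and 1 without the doubted arrays; for KO minus C61A contrasts at 0 h it was 3, and 2 without them; for the difference of the WT sets' responses at 6 h it was 0, and 2 with the random block. The fixed block also pairs mutant with WT microglia, whose same-numbered arrays did not deviate together (-0.112 to -0.0856 between KO and WT set 1). With the replicate block Psme3 was called in untreated KO (0.64, adjusted p = 0.0136) and Psme1 in the control siRNA response at 24 h (1.06, adjusted p = 0.00403), in the Usp18 siRNA response at 6 h (0.48, adjusted p = 0.0421) and between the siRNAs at 24 h (0.41, adjusted p = 0.0457).

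Changes that turned round were none of the called ones. With no term for the run, Psme3 was at -0.20 in KO against WT at 24 h, and in C61A against WT at 0.21, 0.03 and 0.13 at 0, 6 and 24 h, with Psme4 at 0.00 at 0 h. Without the doubted arrays Psme1 in C61A against WT at 0 h was 0.15; without 1 array it ran from -0.89 to 0.15. Without 1 array Psme3 ran from -0.65 to 0.00 in C61A against WT at 24 h and from -0.07 to 0.58 in the C61A response at 24 h, and Psme1 ran from -0.11 to 0.93 in the WT set 2 response at 6 h. The comparisons of the WT sets and of KO with C61A, and their alternatives, were chosen after seeing the data; the causes of these shifts were not tested.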
